A study of Homo sapiens with 6 samples.

Results

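GAS5 and the SNHG genes are long non-coding RNA (lncRNA) genes, most of which carry small nucleolar RNA (snoRNA) genes inside them, and their R-loop peaks were followed here in senescent, quiescent and proliferating fibroblasts. The members were GAS5 and every gene whose symbol is SNHG followed by a number in the RefSeq table of GRCh38, which gave 30 of the 58419 genes used. R-loops, structures in which RNA pairs with one DNA strand and displaces the other, had been mapped by MapR, a form of CUT&RUN that brings micrococcal nuclease to RNA-DNA hybrids through a fused RNase H (RH-MNase). The cells were IMR90, a human line of embryonic lung fibroblasts labelled wild type, cultured at 2% oxygen with 10% serum in the medium. Senescent cells carried ectopic Ras, quiescent cells had been starved, and proliferating cells carried a control vector. The label of 10% serum is the same for every state, and whether it held during starvation is not known. Each state is represented by the peak list of 1 RH-MNase library. The 3 libraries made with GST-MNase, the background enzyme, are not analysed here. There are no replicates, so no test between states was possible, and every difference below is one between single libraries. The lists hold no RNA measurement, so neither transcript levels nor the cell type labels were checked.

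Most mammalian snoRNAs are cut out of the introns of a host transcript. Box C/D snoRNAs guide ribose methylation of ribosomal RNA, H/ACA snoRNAs guide pseudouridylation, and the related scaRNAs act on spliceosomal RNAs in Cajal bodies. In hosts such as GAS5 and SNHG1 the spliced exons encode no known protein, and the spliced RNA is a known target of nonsense-mediated decay. Many hosts belong to the terminal oligopyrimidine (TOP) class, whose transcripts begin with a C followed by a run of pyrimidines and which is otherwise known for ribosomal protein genes. GAS5 takes its name from its accumulation in growth-arrested cells.

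The promoters of 5 members are printed to show where peaks stood over the start of transcription in the libraries. GAS5 was taken by name, and the others had the highest percent of the bases within 1000 bp of the start under peaks, SNHG10 in the senescent list, SNHG28 in the quiescent list, and SNHG10, SNHG18 and SNHG31, tied at 100%, in the proliferating list. Each sequence is from RefSeq (GRCh38.p14) and runs from 250 bases before the annotated start to 50 bases after it, in the direction of transcription. Capitals mark bases under a senescent peak.
GAS5 (chr1:173868996-173869295, minus strand): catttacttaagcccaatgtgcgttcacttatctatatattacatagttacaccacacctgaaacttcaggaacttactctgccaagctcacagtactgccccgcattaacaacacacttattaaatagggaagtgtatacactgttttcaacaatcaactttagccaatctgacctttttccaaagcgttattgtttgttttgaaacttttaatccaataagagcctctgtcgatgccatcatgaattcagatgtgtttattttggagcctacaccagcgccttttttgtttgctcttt
SNHG10 (chr14:95534823-95535122, minus strand): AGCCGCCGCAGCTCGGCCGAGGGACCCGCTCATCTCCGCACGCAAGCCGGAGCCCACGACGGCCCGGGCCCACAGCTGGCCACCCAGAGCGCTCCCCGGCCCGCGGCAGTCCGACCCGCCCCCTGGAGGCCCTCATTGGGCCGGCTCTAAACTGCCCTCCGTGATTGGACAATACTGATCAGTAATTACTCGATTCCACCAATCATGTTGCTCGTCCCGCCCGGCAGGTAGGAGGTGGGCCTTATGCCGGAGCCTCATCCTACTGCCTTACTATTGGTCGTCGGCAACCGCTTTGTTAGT
SNHG28 (chr1:159854988-159855287, minus strand): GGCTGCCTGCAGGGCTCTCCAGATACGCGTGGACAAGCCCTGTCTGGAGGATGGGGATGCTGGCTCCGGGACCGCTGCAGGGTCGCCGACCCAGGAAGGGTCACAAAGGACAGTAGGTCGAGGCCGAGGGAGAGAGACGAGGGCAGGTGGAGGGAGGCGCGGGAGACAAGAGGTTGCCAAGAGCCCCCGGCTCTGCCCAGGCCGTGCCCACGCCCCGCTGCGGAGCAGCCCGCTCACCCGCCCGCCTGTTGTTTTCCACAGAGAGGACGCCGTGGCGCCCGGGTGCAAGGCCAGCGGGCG
SNHG31 (chr2:214809979-214810278, plus strand): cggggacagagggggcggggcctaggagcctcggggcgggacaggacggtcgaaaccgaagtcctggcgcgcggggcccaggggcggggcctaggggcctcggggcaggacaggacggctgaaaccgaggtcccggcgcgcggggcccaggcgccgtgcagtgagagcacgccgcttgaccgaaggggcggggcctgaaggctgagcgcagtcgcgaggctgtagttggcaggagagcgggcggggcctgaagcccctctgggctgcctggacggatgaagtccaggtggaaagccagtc
SNHG18 (chr5:9545950-9546249, plus strand): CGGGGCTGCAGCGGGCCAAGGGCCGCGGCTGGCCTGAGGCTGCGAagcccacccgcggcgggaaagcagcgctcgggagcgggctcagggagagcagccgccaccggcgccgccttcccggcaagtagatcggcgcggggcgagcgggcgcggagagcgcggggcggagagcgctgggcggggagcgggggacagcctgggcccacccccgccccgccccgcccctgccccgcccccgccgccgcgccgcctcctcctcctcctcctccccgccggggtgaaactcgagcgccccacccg
The senescent list covered all 300 bases for SNHG10 and SNHG28, 45 for SNHG18, and 0 for GAS5 and SNHG31. The quiescent list covered 300 bases for SNHG10, 73 for SNHG28 and 60 for GAS5, and 0 for SNHG18 and SNHG31. All 300 bases of each window lay under a proliferating peak.

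For each gene the percent of its locus under peaks was computed, where the locus runs from 1000 bp before the gene to 1000 bp beyond it. A peak touched the locus of 24 members in the senescent list (80%, 95% Wilson interval 62.7 to 90.5), 10 in the quiescent list (33.3%, 19.2 to 51.2) and all 30 in the proliferating list (lower bound 88.6%); the intervals cover counting error only. Among all genes the shares were 45.8%, 15.9% and 49.1%, among the 17874 other lncRNA genes 45.6%, 11.3% and 48.9%, and among the 19821 protein-coding genes 80.3%, 34.4% and 83.4%. The peaks reached within 1000 bp of a gene end in 22, 9 and 28 members, against 38.4%, 12.9% and 43.0% of all genes. The covered percent averaged 14.1% in senescent cells (SD 13.3 across the 30 genes), 2.26% in quiescent cells (SD 3.61) and 35.1% in proliferating cells (SD 24.2). Over all genes these means were 5.33%, 0.628% and 8.73%, over other lncRNA genes 5.46%, 0.666% and 8.78%, and over protein-coding genes 8.04%, 0.985% and 12.7%. Members had a median length of 5048 bp, against 5613 bp in all genes, 9144 bp in other lncRNA genes and 24482 bp in protein-coding genes, and a peak of given width covers more of a short locus. The part of gene length in these means was not tested; a window of fixed length is used further on.

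**Figure D1:**
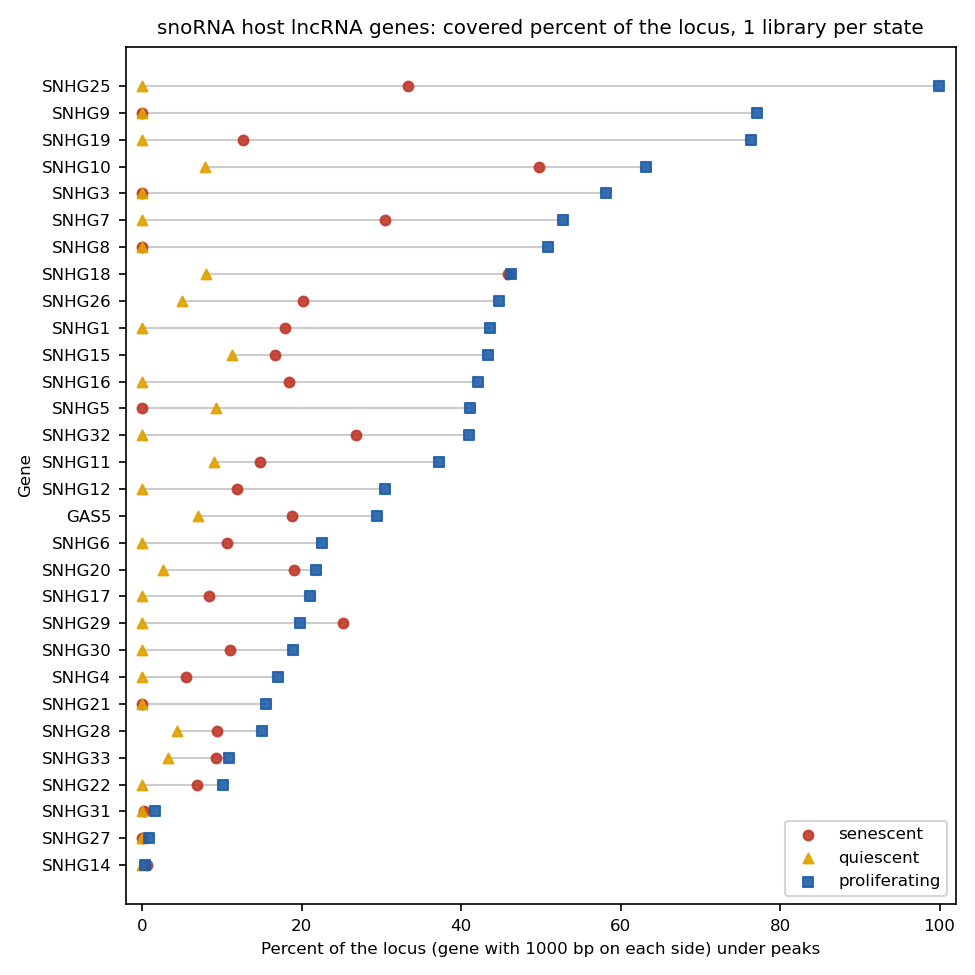
Percent of each member's locus under peaks (horizontal axis, 0 to 100%), with 1 point per library (senescent, red circles; quiescent, yellow triangles; proliferating, blue squares) and members ordered by the proliferating value. The senescent point lies right of the proliferating point for SNHG29 and SNHG14 and left of it for the other 28 members, and 20 quiescent points lie at 0.

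Of the 30 members, 18 had a covered percent lower by 2-fold or more in senescent than in proliferating cells, counting those with no senescent peak, and 0 had one higher by 2-fold or more. The background for the first count is 38.8% of the 30695 genes with a peak in either list (39.8% of other lncRNA genes and 35.8% of protein-coding genes), and for the second 9.31% (13.7% and 5.08%). The members' share of lower calls stood above the background, but no replicate checks that difference. The median of senescent minus proliferating covered percent was -13.7 points among members and -2.95 points among all genes with a peak in either list. A difference in points can be larger where coverage is high, as in the members. As a ratio, the senescent mean was 0.403 of the proliferating mean in members and 0.611 of it over all genes. With a fold of 3 in place of 2, 10 of 30 members were lower, against 23.7% of all genes with a peak in either list. Within 1000 bp of the start site alone, 11 of 24 were lower by 2-fold or more, against 36.4% of all genes with a peak there. Counting any difference in size, 28 members were lower in senescent cells and 2 higher, against 80.3% and 19.6% of all genes with a peak in either list. The senescent list covered 54.1 Mb of the genome and the proliferating list 85.4 Mb, and the read depths are unknown. When the proliferating list was shortened to its highest-scoring peaks of the same covered length, 14 of 29 members with a peak were still lower by 2-fold or more. In that setting 1 was higher, and of all genes with a peak in either list 21.1% were lower and 25.0% higher.

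In quiescent cells all 30 members were lower than in proliferating cells by 2-fold or more, which is the background rate, 99.0% of all genes with a peak in either list. That list covered only 4.12 Mb. With the proliferating list shortened to that length the direction turned, with 2 members lower and 8 higher of the 10 with a peak. Of all genes with a peak in either list, 20.4% were then lower and 74.6% higher. Senescent coverage was higher than quiescent coverage by 2-fold or more in 22 of the 25 members with a peak in either list, against a background of 94.7%, and lower in 1, SNHG5, against a background of 0.336%.

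There were 12 members that contain box C/D snoRNA entries alone, and 11 of them had a senescent, 3 a quiescent and 12 a proliferating peak, with mean covered percents of 18.6%, 1.86% and 41.4%. Of the 12, 7 were lower by 2-fold or more in senescent than in proliferating cells and 0 higher. The background of lower calls is 38.8% of all genes with a peak in either list. SNHG1 (chr11:62851978-62855885), whose 8 entries are SNORD22 and SNORD25 to SNORD31, had 17.9% in senescent, 0% in quiescent and 43.7% in proliferating cells. SNHG5 (chr6:85677007-85678733), host of SNORD50A and SNORD50B, had 0%, 9.28% and 41.1% in the same order of states. Its quiescent peak had the lowest score of that list, 10, and the proliferating peak over its start a score of 74, a percentile of 98.4 within that list (ties at mid-rank). SNHG16, host of the SNORD1 group, had 18.5% in senescent, 0% in quiescent and 42.1% in proliferating cells. SNHG25 (chr17:64145970-64146309) is only 340 bp long, and its locus was 33.3% covered in senescent, 0% in quiescent and 99.9% in proliferating cells. SNHG19 (chr16:2154782-2155358), another short gene, had 12.7% in senescent, 0% in quiescent and 76.4% in proliferating cells, where one peak ran from 2080 bp before its start to 613 bp after it. In senescent cells SNHG19 had peaks on both sides of the gene, ending 794 bp before the start and beginning 1457 bp after it. SNHG6, SNHG26, SNHG30 and SNHG32 had senescent values of 10.7%, 20.1%, 11.0% and 26.8%, against proliferating values of 22.6%, 44.7%, 18.9% and 41.0%.

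SNHG18, SNHG29 and SNHG14 differed from the other box C/D hosts in having a senescent value close to or above the proliferating one. SNHG18 (chr5:9546200-9550298), host of SNORD123, had 45.9% in senescent, 8.0% in quiescent and 46.2% in proliferating cells. The near-equal totals came from different places. The senescent list had one peak ending 206 bp before the start, one from 270 to 1938 bp after it and one from 3561 to 3896 bp. The second of these had a score of 51, a percentile of 99.4 within the list. The proliferating list had a single peak from 2004 bp before the start to 1819 bp after it. SNHG29 (chr17:16438987-16470648), with 3 box C/D entries near its start, had 11 senescent peaks over 25.2% of its locus, 0 quiescent peaks, and 8 proliferating peaks over 19.9%. The peaks of both lists were spread over a gene of 31662 bp, and 10 of the senescent and 7 of the proliferating ones also lay in LRRC75A, a protein-coding gene that overlaps it. SNHG14 (chr15:24823608-25419462) is the long imprinted transcript of the Prader-Willi region that runs antisense to UBE3A and contains the SNORD116 and SNORD115 clusters. It had 7 senescent peaks over 0.591% of its locus, 0 quiescent peaks, and 3 proliferating peaks over 0.368%. A pair of peaks in both of these lists lay inside SNRPN, near the start of SNURF, which is 131379 bp from the SNHG14 start. The senescent pair began at 131485 bp, just past that start, and the first proliferating peak, from 130830 to 131708 bp, lay over it. The other 5 senescent peaks lay 362668 to 405440 bp from the start and touched 3 SNORD115 copies, with no proliferating peak at any of them. Their scores, 11 to 18, were below the senescent median of 19. SNORD115 copies are near-identical, and the sources used here do not give how reads with several matches were placed, so the position of these peaks is uncertain.

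There were 10 members that contain H/ACA entries alone. Of these 7 had a senescent, 3 a quiescent and 10 a proliferating peak, with mean covered percents of 8.55%, 2.35% and 37.0%, and 8 of the 10 were lower by 2-fold or more in senescent than in proliferating cells, against the same background of 38.8%. No test compares the classes. SNHG3 (chr1:28505943-28510892), host of SNORA73A and SNORA73B, the U17 snoRNAs, had no senescent and no quiescent peak, against 4 proliferating peaks over 58.1% of its locus. SNHG9 and SNHG8 likewise had 0% in senescent and quiescent cells, against 77.1% and 50.9% in proliferating cells. The SNHG9 peak had no other list's peak under it and reached into RPS2, a ribosomal protein gene beside it. SNHG11, SNHG15, SNHG4, SNHG17 and SNHG31 had senescent values of 14.8%, 16.7%, 5.57%, 8.39% and 0.261%, against proliferating values of 37.3%, 43.4%, 17.1%, 21.1% and 1.58%. SNHG11 and SNHG15 were also covered in quiescent cells, at 9.06% and 11.2%, so that their senescent and quiescent values lay within 2-fold of each other. SNHG7 had 30.5% in senescent, 0% in quiescent and 52.8% in proliferating cells, and SNHG33 9.28%, 3.26% and 11.0%. SNHG17 and SNHG11 lie 11.3 kb apart on chromosome 20 and share no peak.

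GAS5 and SNHG12 hold both kinds of snoRNA, and SNHG12 was the one of the pair lower by 2-fold or more in senescent than in proliferating cells. Among all genes with a peak in either list, 38.8% were lower in this way. GAS5 (chr1:173863901-173869045), with 10 box C/D entries and SNORA103, had 18.8% of its locus covered in senescent, 7.0% in quiescent and 29.4% in proliferating cells. The senescent list had a peak from 117 to 1211 bp after the annotated start, score 22, and a second one beyond the end of the gene, and the quiescent list had peaks at 10 bp before to 226 bp after the start and at 602 to 864 bp. The one proliferating peak spanned 328 bp before to 1775 bp after the start, with a score of 52, a percentile of 91.4 within that list. GAS5 was thus one of 9 members with a peak in all lists, with SNHG10, SNHG11, SNHG15, SNHG18, SNHG20, SNHG26, SNHG28 and SNHG33. SNHG12 had 11.9% in senescent, 0% in quiescent and 30.5% in proliferating cells.

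There were 4 members that contain a scaRNA, and 1 of them, SNHG21, was lower by 2-fold or more in senescent than in proliferating cells. The background is again 38.8% of all genes with a peak in either list, and 4 genes are too few to set against it. SNHG10 (chr14:95532912-95534872) had 49.8% in senescent cells, the highest senescent value among the members, 7.9% in quiescent and 63.2% in proliferating cells. SNHG20 had 19.1%, 2.59% and 21.8%, and SNHG22 6.84%, 0% and 10.1%, in the same order. SNHG21 had no senescent or quiescent peak, against 15.6% in proliferating cells. The top senescent peak of SNHG20 scored 23, a percentile of 69.8 within its list, and the top proliferating peak 82, a percentile of 99.2. SNHG27 and SNHG28 have no snoRNA entry within their coordinates. SNHG28 had 9.38% in senescent, 4.34% in quiescent and 15.0% in proliferating cells. SNHG27 had a single proliferating peak over 0.841% of its locus and no other.

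Members were covered more at their starts than at their ends. For 26 members the promoter table gives a start and strand; SNHG6, SNHG9, SNHG15 and SNHG25 are without one. The start base itself lay under a peak in 11 of 26 members in the senescent list, 3 in the quiescent list and 24 in the proliferating list, the exceptions in the last being SNHG14 and SNHG27. The background for these counts is 31.5%, 7.62% and 50.4% of all genes with a start, 18.7%, 3.62% and 29.6% of other lncRNA genes, and 40.6%, 10.5% and 65.2% of protein-coding genes. Of the window of 1000 bp on each side of the start, members had on average 37.3% covered in senescent, 7.15% in quiescent and 71.3% in proliferating cells, against 2.95%, 0% and 13.9% of the same window around the end of the gene. In all genes with a start the means were 25.2%, 4.72% and 40.6% at the start and 5.72%, 0.496% and 8.71% at the end. The start window was covered more than the end window in all 19, 8 and 24 members in which the lists reached the start window, and less in 0. Of the peaks that could be placed, 21 of 52 senescent, 9 of 10 quiescent and 24 of 66 proliferating ones lay within 1000 bp of the start. A further 25, 1 and 30 lay within 1000 bp of neither end. All 7 senescent peaks of SNHG14, and all but the first of the 11 of SNHG29, were among these 25. The inner peaks had median widths of 452 bp in the senescent and 538 bp in the proliferating list. These are close to the medians of the whole lists, 468 and 550 bp. Peaks over the start base were wider, with medians of 1094 and 1970 bp.

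**Figure D2:**
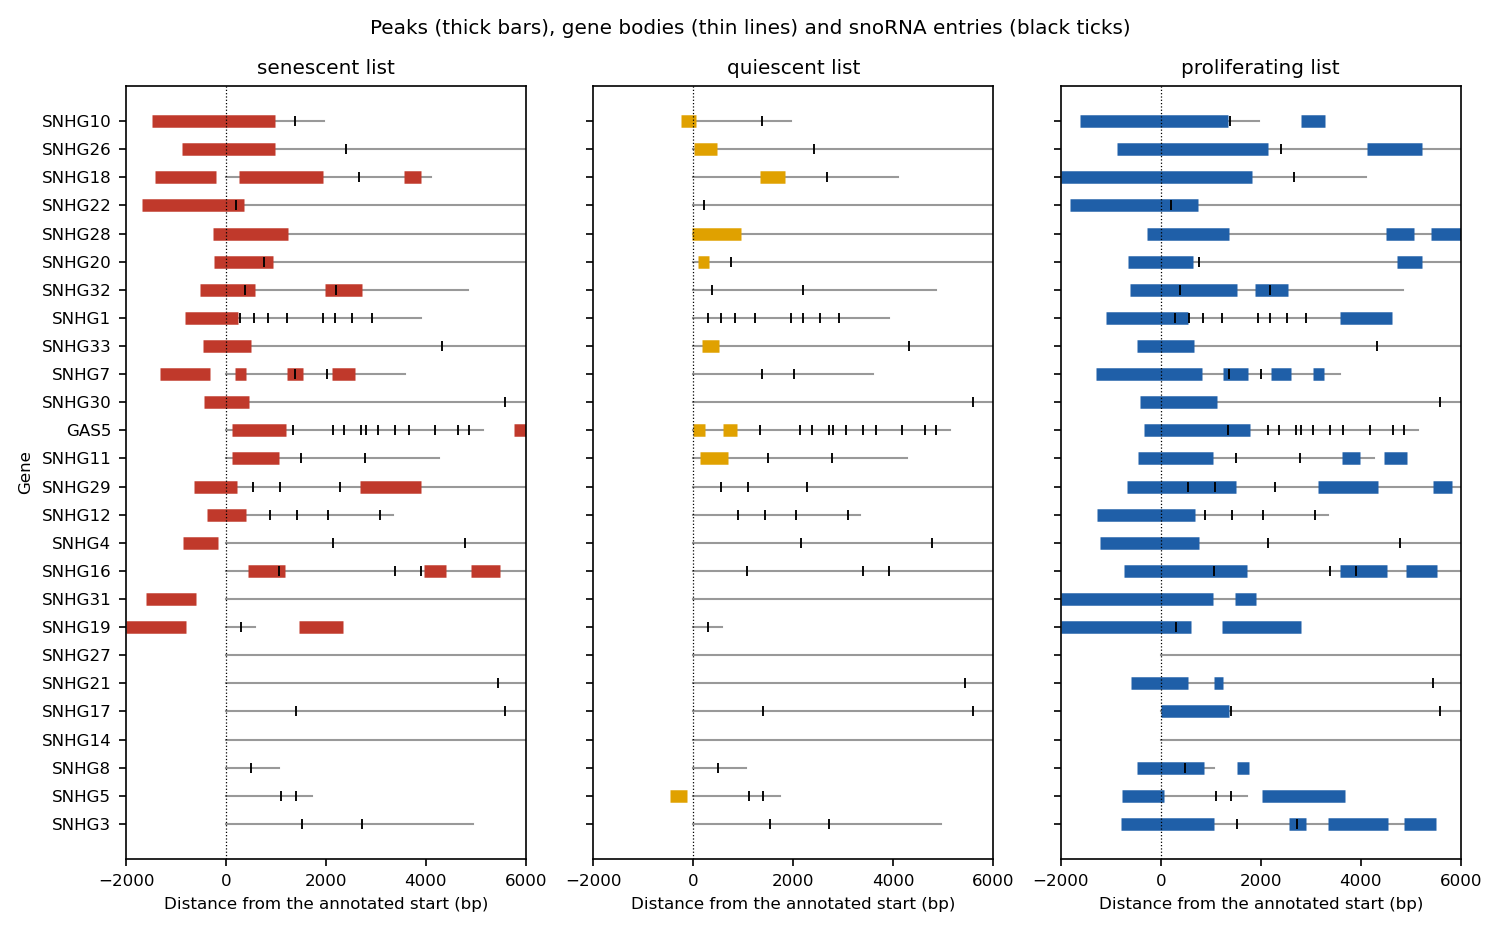
Peaks around the annotated start of the 26 members with a known start, from 2000 bp before to 6000 bp after it, in the senescent (left), quiescent (middle) and proliferating (right) list. Thick bars are peaks, thin lines the gene downstream of the start and black ticks snoRNA entries; 11 genes in the senescent, 3 in the quiescent and 24 in the proliferating list have a bar across the dotted start line.

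Among the 24 members whose start base lay under a proliferating peak, 11 (45.8%) also had it under a senescent peak, against 59.0% of all genes, 57.1% of other lncRNA genes and 59.7% of protein-coding genes chosen in the same way. A senescent peak anywhere within 1000 bp of the start was present in 19 of the 24 (79.2%), against 90.5% of all such genes. No test compares these shares. In the 11 members with a peak over the start in both lists, namely SNHG1, SNHG10, SNHG12, SNHG20, SNHG22, SNHG26, SNHG28, SNHG29, SNHG30, SNHG32 and SNHG33, the senescent peak was the narrower one in all 11. Their median width was 1094 bp in senescent and 1965 bp in proliferating cells. The median reach upstream was 515 bp and 679 bp in these states, and downstream 505 bp and 1133 bp. Widths at starts were not compared in this way over all genes. The senescent list as a whole had narrower peaks, with a median width of 468 bp against 550 bp in the proliferating list. In 8 further members the senescent peak lay within 1000 bp of the start but not over it. For GAS5, SNHG11 and SNHG16 it began 117, 128 and 437 bp after the start, for SNHG4 and SNHG31 it ended 151 and 596 bp before it, for SNHG19 it ended 794 bp before it, and for SNHG7 and SNHG18 there were peaks on both sides. SNHG3, SNHG5, SNHG8, SNHG17 and SNHG21 had no senescent peak within that distance.

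Across members the share under a senescent peak was 42.3% at 25 bp after the start and highest, 53.8%, at 175 bp. The quiescent share was also highest at 175 bp, at 23.1%, and the proliferating share at 25 bp, at 92.3%. At 975 bp after the start the shares were 23.1%, 0% and 50%. Protein-coding genes had their highest shares, 45.0%, 13.2% and 65.9%, at 125, 125 and 75 bp after the start, and other lncRNA genes theirs, 19.7%, 4.35% and 29.8%, at 75, 125 and 75 bp.

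**Figure D3:**
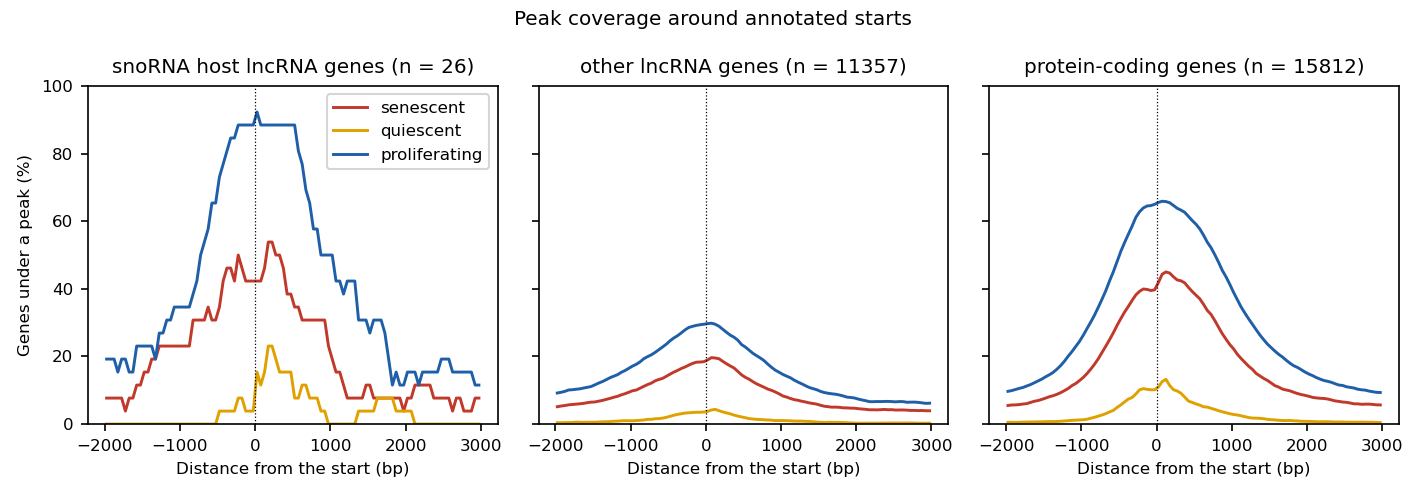
Percent of genes under a peak (vertical axis) by distance from the annotated start in bins of 50 bp, for the 26 members with a start (left), 11357 other lncRNA genes (middle) and 15812 protein-coding genes (right), with 1 line per library. The members reach 53.8% (senescent), 23.1% (quiescent) and 92.3% (proliferating), all near the start.

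Starts of members are often shared with other genes, and peaks cannot be assigned to either gene. A protein-coding start lay within 1000 bp of the start of 11 members, on the opposite strand for 7 (GAS5, SNHG1, SNHG10, SNHG18, SNHG19, SNHG22 and SNHG31) and on the same strand for 4. GAS5 and ZBTB37 start 665 bp apart, SNHG1 and the amino acid transporter gene SLC3A2 224 bp, SNHG10 and the glutaredoxin gene GLRX5 178 bp, SNHG18 and SEMA5A 125 bp, and SNHG31 and the DNA repair gene BARD1 546 bp. SNHG3 starts 100 bp from RCC1, the nucleotide exchange factor of the GTPase Ran, and SNHG4 at the same base as MATR3, the gene of a nuclear matrix protein. Without these 11 members, 13 of the remaining 19 were lower by 2-fold or more in senescent than in proliferating cells. The background is 38.8% of all genes with a peak in either list. The 19 include SNHG6, SNHG9, SNHG15 and SNHG25, which have no start in the promoter table and were all lower. Whether a protein-coding start lies near theirs could not be assessed. Leaving out shared starts did not leave out shared peaks. Among all 30 members, 19 had a peak in any list that also touched a protein-coding gene. Of those kept here, these were SNHG6, SNHG8, SNHG9, SNHG14, SNHG17, SNHG25, SNHG28 and SNHG29. The lower calls among them were SNHG6, SNHG8, SNHG9, SNHG17 and SNHG25.

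The snoRNA genes within the hosts were examined on their own coordinates. Of 144 snoRNA entries inside members, 83 lie in SNHG14. Of the other 61, 8 (13.1%) lay under a senescent, 0 under a quiescent and 20 (32.8%) under a proliferating peak. Among 424 snoRNA entries outside the members the background is 3.54%, 0.472% and 12.7%. SNHG14 was set apart after seeing the data, while the 424 keep the 41 entries of MEG8. With SNHG14 included, 11 of the 144 lay under a senescent, 0 under a quiescent and 20 under a proliferating peak. Among the 424 these counts were 15, 2 and 54, so the shares given for the 61 hold for them alone. The 8 senescent ones were SNORD48 and SNORD52 in SNHG32, SNORA17A in SNHG7, SNORD104 in SNHG25, SNORD1C in SNHG16, SCARNA16 in SNHG20, SCARNA17 in SNHG22 and SNORA71A in SNHG17. All of them but SCARNA16 also lay under a proliferating peak. By position, counts were made for entries outside SNHG14 whose host has a start in the promoter table. Neighbouring entries of a host can lie under the same peak, as SNORD25 and SNORD26 of SNHG1 did in the proliferating list. No background by distance was computed. Of 10 entries within 1000 bp of the host's start, 3 lay under a senescent and 7 under a proliferating peak, and of 32 entries more than 2000 bp from it, 2 and 4. By kind, 4 of 35 box C/D entries, 2 of 22 H/ACA entries and 2 of 4 scaRNA entries lay under a senescent peak, and 11, 7 and 2 under a proliferating one. In GAS5 the one entry of 11 under a peak was SNORD74, the nearest to the start, in the proliferating list. Exon positions were not used, so snoRNA entries were not classed as intronic here.

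The letters of the promoters were compared with those of all promoters in the table. The median GC content of the 300-base window was 62.5% in members (37.7% in GAS5 to 81.3% in SNHG18), 50% in other lncRNA genes and 62.7% in protein-coding genes. The dinucleotide CG occurred a median of 24 times in members, 5 times in other lncRNA genes and 22 times in protein-coding genes. GC skew, the excess of G over C divided by their sum, was positive in 12 of 26 members and had a median of -0.0120, against 0.0041 over all promoters. The pattern of TOP transcripts was searched only in the sequence read in the direction of transcription. The pattern is a C at the annotated start followed by at least 4 bases that are each C or T. It was found in 6 of 26 members (23.1%), against 4.04% of all promoters and 4.59% of protein-coding ones. These starts are shown with 10 bases before them, with the unbroken run of C and T from the start in capitals.
SNHG4 (chr5:139274091-139274120, plus strand): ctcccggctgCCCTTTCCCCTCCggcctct
SNHG5 (chr6:85678714-85678743, minus strand): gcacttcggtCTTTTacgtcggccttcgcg
SNHG12 (chr1:28581854-28581883, minus strand): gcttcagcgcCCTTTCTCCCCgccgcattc
SNHG18 (chr5:9546190-9546220, plus strand): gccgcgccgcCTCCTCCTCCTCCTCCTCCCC
SNHG19 (chr16:2155339-2155368, minus strand): ccgcccctgtCTTTTCggggtcgagtccga
SNHG32 (chr6:31834906-31834935, plus strand): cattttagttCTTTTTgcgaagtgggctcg
Of these 6, SNHG12 and SNHG32 had the start base under a senescent peak, none had it under a quiescent peak, and all 6 had it under a proliferating peak. The shares over all 26 members were 42.3%, 11.5% and 92.3%, and over all genes with a start 31.5%, 7.62% and 50.4%. With 6 genes no difference from these shares can be read. A start placed a few bases away in the annotation would hide such a run, so its absence in the other 20 says nothing about their class.

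Lists of related genes were described in the same way. As above, 38.8% of all genes with a peak in either list were lower by 2-fold or more in senescent than in proliferating cells. A snoRNA entry lies inside 28 other lncRNA genes, and 10 of the 21 with a peak in either list were lower by 2-fold or more in senescent than in proliferating cells and 1 was higher. Among those named here after their values were seen, EPB41L4A-AS1 had 0% in senescent and 27.2% in proliferating cells, DANCR 6.74% and 19.3%, ZFAS1 12.5% and 17.3%, and MEG8, which holds 41 entries in the imprinted cluster of chromosome 14, 1.02% and 2.08%. Of 255 protein-coding snoRNA hosts, 129 of 250 were lower by 2-fold or more and 1 was higher. Neither list of hosts is fully separate from the members. PWARSN, PWAR4, PWAR5 and LOC128966705 lie inside SNHG14, and LOC124901081 spans SNHG4. Of the protein-coding hosts, RCC1, MATR3 and SEC14L1 hold snoRNA entries of SNHG3, SNHG4 and SNHG20. Likewise, MCMDC2, LOC124900276, LOC124904958 and FSD2 hold entries of SNHG6, SNHG7, SNHG17 and SNHG21. Of 19 genes of snoRNP proteins and their assembly factors, 9 were lower and 0 higher. NOP58, a core protein of box C/D particles and itself a host, had 0.629% in senescent and 7.41% in proliferating cells, and FBL, the methyltransferase of these particles, 12.2% and 21.8%. DKC1, the pseudouridine synthase of H/ACA particles, had 3.01% and 8.42%, and NHP2, another H/ACA core protein, 0% and 18.6%. NOLC1, a nucleolar and Cajal body protein, had 0% and 22.6%. The other 10 of the 19 differed by less than 2-fold, FBL among them. They include NOP56 with 25.0% and 27.6%, NOP10 with 22.3% and 31.5%, and GAR1 with 7.30% and 13.5%. Of 10 factors of nonsense-mediated decay, 1 was lower and 0 higher. The one was SMG8 with 3.60% and 11.6%; the helicase gene UPF1 had 12.0% and 20.4%, and SMG5 15.0% and 10.7%. In the start window the means were 41.6%, 7.98% and 72.8% in the senescent, quiescent and proliferating lists for protein-coding snoRNA hosts, 24.0%, 1.98% and 46.1% for the other lncRNA snoRNA hosts, 37.3%, 7.15% and 71.3% for the members, and 32.9%, 6.45% and 52.7% for all protein-coding genes.

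**Figure D4:**
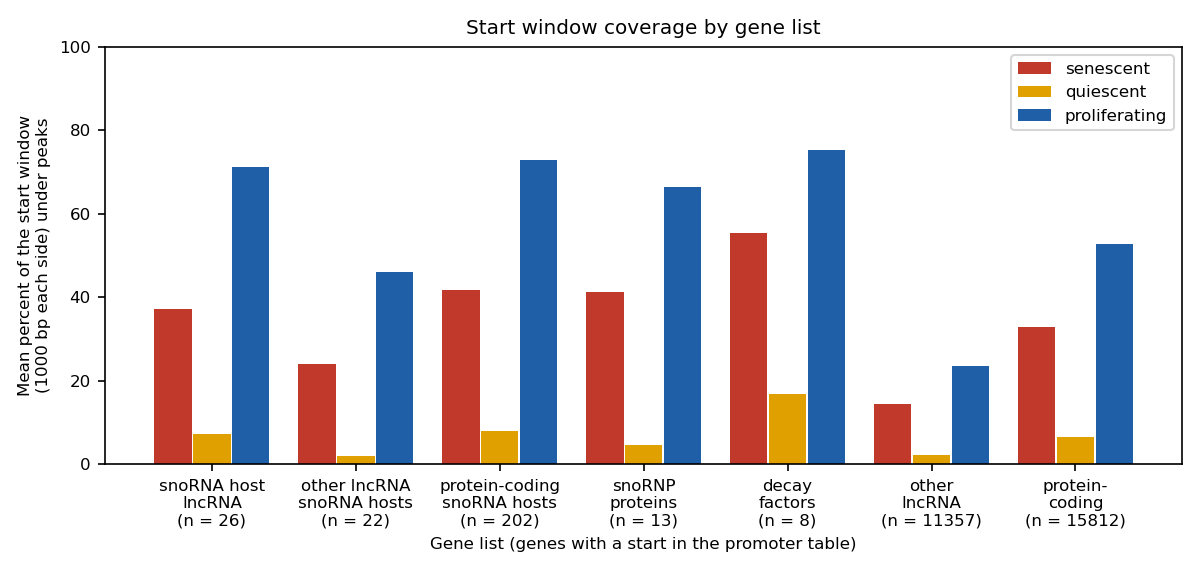
Mean percent of the window of 1000 bp on each side of the start under peaks (vertical axis, from 0), for the members and the comparison lists, with 1 bar per library; n is the number of genes with a start in the promoter table, and decay factors are those of nonsense-mediated decay. The members stand at 37.3% (senescent), 7.15% (quiescent) and 71.3% (proliferating), and protein-coding snoRNA hosts at 41.6%, 7.98% and 72.8%.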

How the data were processed

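MapR had been run on IMR90 fibroblasts, with 6 libraries in the series. Only the 3 RH-MNase peak lists entered the comparisons, each from 1 library. GRCh38 was the build, and MACS2 2.2.7.1, Bowtie2 2.4.5 and FastQC 0.11.9 are named as tools, per the submitters' processing notes. The sources used here give neither settings and read filters nor the use of a control library. The deposited files hold peak positions and the authors' score, which takes integer values from 10 upwards on an unstated scale and served only to rank peaks within a list. The lists hold 85564 senescent, 9736 quiescent and 101802 proliferating peaks, with median widths of 468, 352 and 550 bp. Read depth is unknown.

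Genes came from RefSeq GRCh38.p14. Of 59792 entries, 58419 on chromosomes 1 to 22 and X were used, and starts and strands of 27195 came from the promoter table, taking the start nearest the outer end of the gene. A peak counted with at least 1 bp of overlap. Covered length was computed in Python 3.11.15 with pandas 2.3.3 and numpy 2.4.6 and was tested on simulated data. A gene was called where the covered percent differed by 2-fold or more or was 0 in 1 list only. Equal lists were made from the highest scores, with ties in favour of wider peaks. The members, lists and tests were chosen with earlier results of these data known. All members are accounted for; other genes are named where they share a peak or start with a member or belong to a comparison list.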

Additional observations from a re-analysis of the deposited data

How the results depend on the processing

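No paired analysis was possible because each state has 1 library. The count of 18 members lower by 2-fold or more in senescent than in proliferating cells stayed between 14 and 23 in most settings. These were no flank, flanks of 500 and 3000 bp, peaks from the median score upwards, equal numbers of peaks and equal covered length. The peak centre in the locus, peaks over 20000 bp left out and a fold of 1.5 also belong here. The count was 10 with a fold of 3, and 11 of 24 in the window of 1000 bp around the start site. The share of all genes with a peak in either list that were lower moved too. It was 21.1% at equal covered length and 56.7% with a fold of 1.5. With no flank 16 of 30 members were lower against 40.7%, and with a flank of 3000 bp 14 of 30 against 38.8%. The count of 30 for quiescent cells became 11 of the 13 members with a peak at equal numbers of peaks, against 72.2% of all genes with a peak. At equal covered length it was 2 of 10, against 20.4%. It was 19 of 19 without the members that have a protein-coding start within 1000 bp, where fewer members were counted. The last setting, the start window and the count without SNHG14 were added after seeing the data.

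With the 9736 highest peaks of each list, 6 senescent and 12 proliferating members had any peak, 5 and 12 had one at a gene end, and the mean covered percent was 4.17% and 12.1%. At the covered length of the quiescent list, 5 senescent and 2 proliferating members had a peak, 4 and 2 had one at a gene end, and the means were 2.25% and 1.26%, so the order of the states turned. With lower-scoring peaks left out, below the median of each list, quiescent peaks were present in 4 members, at a gene end in 4, with a mean of 0.766%. The 11 senescent and 20 proliferating snoRNA entries under a peak, SNHG14 included, became 1 and 5 with equal numbers of peaks and 1 and 0 at the quiescent covered length. With the peak centre required they were 1 and 2. With 3000 bp added to the entries they were 66 senescent, 18 quiescent and 58 proliferating, with 500 bp 23 senescent and 2 quiescent, and from the median score upwards 6 senescent. Other settings kept these counts within 1.5 times. No flank was not tried for gene ends and snoRNA entries, which have none. The causes were not tested.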
